A study of Mus musculus with 2 samples.

Results

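The 9 genes described here make, carry and destroy retinoic acid: Rdh10, Aldh1a1, Aldh1a2 and Aldh1a3 for synthesis, Crabp1 and Crabp2 for binding, and Cyp26a1, Cyp26b1 and Cyp26c1 for breakdown. They were chosen by name, with earlier results of these data known, and all 9 were found among the 43346 annotated genes of the deposited tables. The tissue was facial prominence, the swellings that build the face and jaws, taken from B6NCrl mice at embryonic day 11.5. Library 1 pooled 109 embryos and library 2 pooled 88, male and female together, and the labels describe them as healthy and name no treatment or mutation. The 2 libraries are biological replicates of 1 group, so there is no second condition to test against. The questions are how high each gene stood, which transcript it used and how far the pools differed.

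Retinoic acid is made from vitamin A in a chain of oxidations. Rdh10 turns retinol into retinal, and the Aldh1a enzymes turn retinal into retinoic acid, which enters the nucleus and binds the RAR and RXR receptors. Crabp proteins hold the acid in the cytoplasm, and Cyp26 enzymes oxidise it to forms that are cleared. In the embryonic head the acid comes from restricted sources, among them the eye and the nasal region, and both too much and too little of it disturb the growth of the face.

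Expected counts, the reads estimated per gene, summed to 30849058 in library 1 and 31600302 in library 2. Added spike-in RNA took 7.20% and 7.34% of them. Levels are in TPM, a transcript's abundance per length scaled to a fixed total per library, and errors are the SD of both libraries (n = 2). All 13 markers of facial mesenchyme were detected, where 58.5% of protein-coding genes were. They were led by Msx1 (263 ± 20.9) and Alx1 (131 ± 14.1), with a summed 934 TPM in library 1 and 971 in library 2. Of these 13, 2 were at least 25% higher in library 2, where 7.11% of genes with at least 50 counts in total were. They were Barx1 at 1.89-fold (56.6 and 105 TPM) and Lhx8 at 1.33-fold (41.6 and 55.0 TPM), named after their values were seen. Detection means at least 1 TPM in both libraries. In bulk RNA, fewer cells of a type and less RNA per cell cannot be told apart.

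All 9 members were detected, where 58.5% of protein-coding genes and 32.0% of all genes were. Their median was 30.2 TPM, beside 3.45 over protein-coding genes. The roles were far apart in level. The binding proteins together held 90.6% ± 1.58 of the summed TPM of the 9 genes, the synthesis enzymes 7.94% ± 1.57 and the Cyp26 enzymes 1.5% ± 0.00802. That last SD is of the share: in TPM the Cyp26 enzymes summed to 21.2 in library 1 and 19.7 in library 2 (20.5 ± 1.05). The summed level of the synthesis enzymes exceeded that of the Cyp26 enzymes by 5.99 times in library 1 and 4.56 times in library 2. These are levels of transcripts, and they carry no measure of enzyme activity or of the acid itself.

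**Figure D1:**
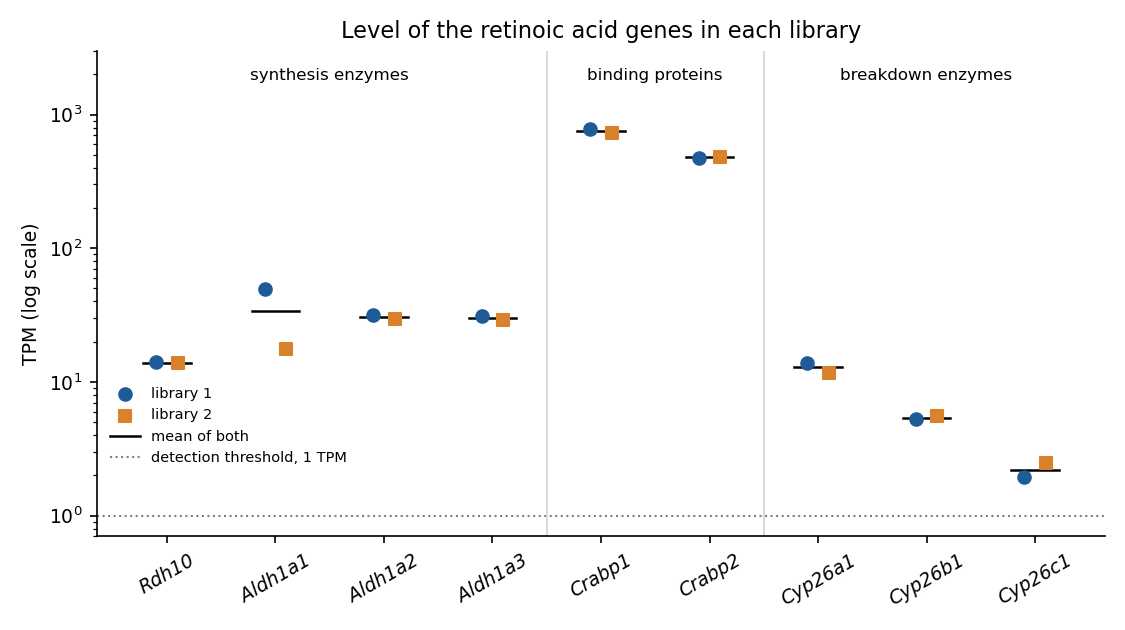
Level of each of the 9 genes in TPM on a log axis, with library 1 as circles, library 2 as squares and their mean as a bar. Crabp1 and Crabp2 stand above the other 7 genes in both libraries, and Aldh1a1 is the gene with its libraries farthest apart (49.97 and 17.7 TPM).

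Among the synthesis enzymes, Rdh10 (chromosome 1, 16105774 to 16133734, mm10), the dehydrogenase of the retinol step, had the smallest spread of the 9 genes in proportion to its level. It stood at 14.0 TPM in library 1 and 13.8 in library 2, a mean of 13.9 ± 0.106. Aldh1a2 (chromosome 9, 71215789 to 71296243), the main source of retinoic acid in the trunk of the early embryo, was at 31.8 and 29.4, a mean of 30.6 ± 1.697. Aldh1a3 (chromosome 7, 66390890 to 66427517), known from the ventral retina and the nasal region, was at 31.3 and 29.0, a mean of 30.2 ± 1.66. Summed over transcripts, Aldh1a2 and Aldh1a3 therefore lay at the same level within their spread, with a ratio of 1.01 in each library. This equality includes a short Aldh1a3 transcript described below, estimated at 10.6 and 7.52 TPM. The full-length transcript, Aldh1a3-201, was at 20.5 and 20.9 TPM, below Aldh1a2 in both libraries.

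Aldh1a1 (chromosome 19, 20492715 to 20643465), the enzyme of the dorsal retina, was the member that set the pools apart. It stood at 49.97 TPM in library 1 and 17.7 in library 2, so that its SD of 22.9 was 67.6% of its mean of 33.8. In library 1 it was the highest of the Aldh1a genes, with 44.2% of their summed TPM, and in library 2 the lowest, with 23.2%. Its level was 1.57 times that of Aldh1a2 in library 1 and 0.601 times in library 2. By mean TPM the order was Crabp1, Crabp2, Aldh1a1, Aldh1a2, Aldh1a3, Rdh10, Cyp26a1, Cyp26b1 and Cyp26c1, and only the places of the Aldh1a genes changed between the libraries. Summed over transcripts, the means of the 3 Aldh1a genes do not differ beyond their spread. The values of Rdh10 and Cyp26a1 overlap, since 13.9 TPM for Cyp26a1 in library 1 lies between those of Rdh10.

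Ratios between the libraries were taken from expected counts scaled by TMM (trimmed mean of M values), with an exact 95% interval (Clopper-Pearson, for the share of a gene's counts in each library) in brackets. That interval covers counting error only, not the spread between pools. Aldh1a1 had 2002 counts in library 1 and 720 in library 2, a ratio of 2.78-fold (2.55 to 3.03) toward library 1. Its log2 ratio (library 2 over library 1) of -1.47 was larger in size than that of 99.2% of the 14790 genes with at least 50 counts over both libraries. Toward library 1, 65 of these genes (0.439%) had a ratio as large or larger. Cyp26c1 had 66 and 85 counts, a ratio of 1.29-fold (0.924 to 1.81) toward library 2 that includes no difference. In 2 of 9 members, Aldh1a1 and Cyp26c1, the higher library exceeded the lower by at least 25%, where 17.9% of the genes compared did so, 10.8% toward library 1 and 7.11% toward library 2. As a count this is near the background, and what stands out is the size of the ratio of Aldh1a1.

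The other 7 members lay close together in the pools. Their ratios ran from 1.16-fold (1.02 to 1.33) toward library 1 for Cyp26a1, with 478 and 410 counts, to 1.06-fold (0.934 to 1.197) toward library 2 for Cyp26b1. Crabp1 was 1.06-fold (1.03 to 1.09) toward library 1 and Crabp2 1.04-fold (1.01 to 1.07) toward library 2. The interval left out 1 for 4 members, Aldh1a1, Crabp1, Crabp2 and Cyp26a1, a share close to the 42.5% of all genes for which it did. The median size of the log2 ratio was 0.09 over the 9 members and 0.13 over the genes compared. Over the 15986 genes that passed edgeR's count filter, its common dispersion put the pools' variation above counting noise at 9.79% of the level.

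**Figure D2:**
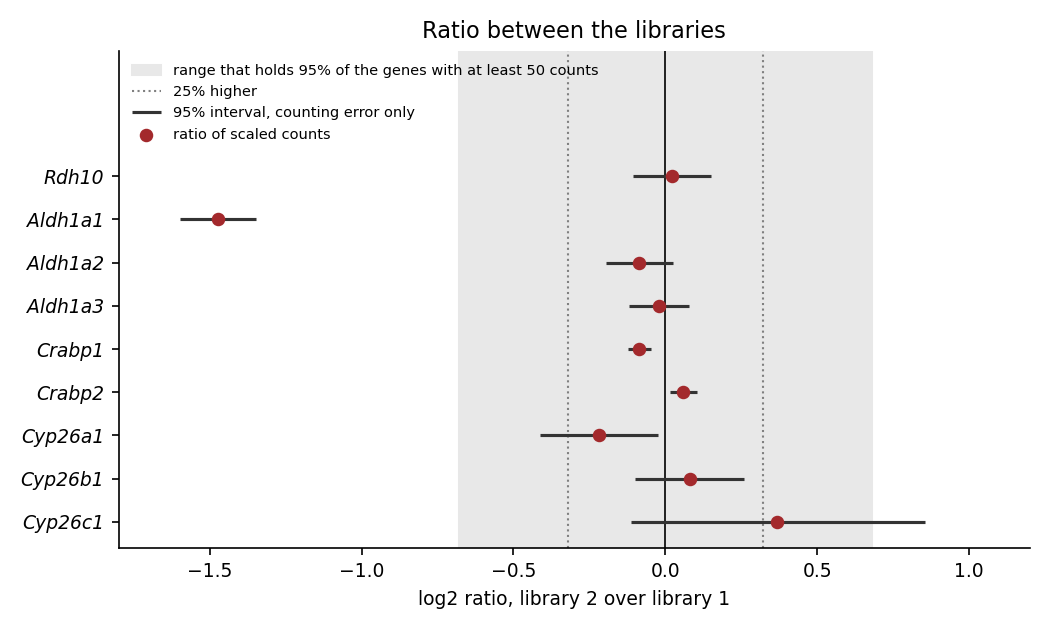
Log2 ratio of scaled counts, library 2 over library 1, with the 95% interval of counting error as a line. The grey band holds 95% of the genes with at least 50 counts (a log2 ratio of up to 0.68 in size), the dotted lines mark a library 25% above the other, and Aldh1a1 at -1.47 is the member outside the band.

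Markers of eye tissue differed in the same direction as Aldh1a1. Of 12 markers of retina, pigment layer and lens, all 12 were higher in library 1, and 11 by at least 25%, against 10.8% of the genes compared. Their summed level was 243 TPM in library 1 and 79.2 in library 2, and none was at 0. Like the other marker lists, this list was written with earlier results of these data known, so its count is a description and not a test. Cryaa, a lens crystallin, was at 118 and 12.9 TPM, and Pmel, of pigment granules, at 51.0 and 21.2. Vax2, a homeobox gene of the ventral retina, had a ratio of 4.10-fold toward library 1. Tbx5, of the dorsal retina, had 42 and 26 counts, a ratio of 1.61-fold. The part of eye tissue in the ratio of Aldh1a1 was not tested. Aldh1a1 overlaps 2 annotated genes of the opposite strand, C730002L08Rik and Gm6684, with 0 shared exon bases.

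No other marker list had a median ratio that far toward library 1. The median log2 ratio was -0.94 for eye, -0.27 for forebrain, -0.14 for neurons, -0.12 for erythroid cells, -0.10 for endothelium and surface ectoderm, and -0.07 for nasal and olfactory genes. Forebrain markers summed to 185 TPM in library 1 and 208 in library 2, led by Fabp7 (162 and 183) and Nkx2-1 (5.25 and 12.8). That sum was mostly Fabp7. Of the 7 forebrain genes with at least 50 counts, 4 were higher in library 1 and 3 in library 2. Neuronal markers summed to 581 and 492, led by Tubb3 (187 and 150) and Gap43 (125 and 115). Nasal and olfactory markers summed to 143 and 134, with Ebf2 at 28.8 and 26.3. No marker in any of the 10 lists was without counts in both libraries. Aldh1a3, a gene of eye and nasal epithelium, had a ratio of 1.01-fold (0.948 to 1.09), with 1713 and 1686 counts. The part of either tissue in that ratio was not tested.

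**Figure D3:**
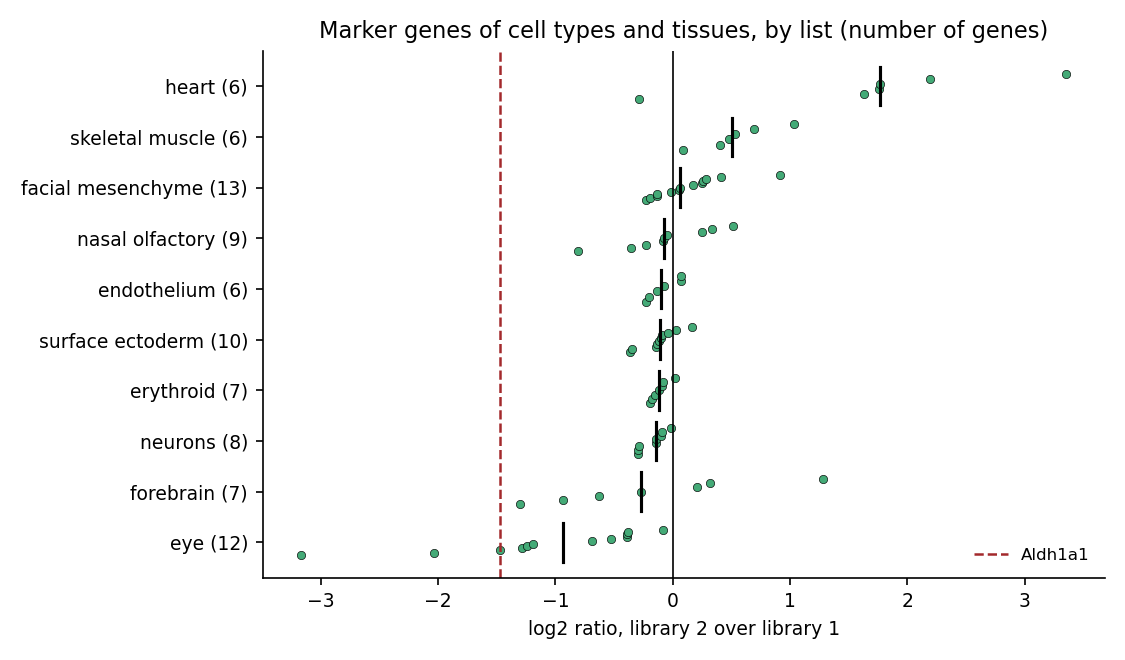
Log2 ratio of each marker gene, library 2 over library 1, by list, with the median of the list as a black bar and the number of genes with at least 50 counts in brackets. The 12 eye genes all lie on the side of library 1, with a median of -0.94 and the dashed line of Aldh1a1 within their range, while the medians of heart (1.76) and skeletal muscle (0.50) lie on the side of library 2.

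Aldh1a3 was the one member whose TPM was divided between transcripts to any extent. The full-length Aldh1a3-201, with 13 exons and 1536 coding bases, took 65.5% of the gene's TPM in library 1 and 72.1% in library 2. The shorter Aldh1a3-203, with 7 exons and 528 coding bases, took 33.9% and 26.0%. Its model starts at an exon of its own, shares exons 2 to 6 with the long form, and runs past the end of exon 7 for 655 bases (chromosome 7, 66408511 to 66409165, minus strand) where the long form splices on to exon 8. The sequences below show that point, with the last 15 shared bases of exon 7 in lower case and the next 15 bases of each transcript in capitals, from GENCODE M21 on GRCm38. Both stretches in capitals are annotated as coding.
Aldh1a3-201: accggctccacagagGTTGGAAAGCTGGTC
Aldh1a3-203: accggctccacagagGTACGCCCTCTCTGT

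The shared run ends at base 66409166. Aldh1a3-203 continues there at 66409165 with GT, the letters with which introns begin, while Aldh1a3-201 continues at 66407903. In TPM, Aldh1a3-201 was level in the pools, 20.5 and 20.9, and Aldh1a3-203 was at 10.6 and 7.52, a ratio of estimated counts of 1.38-fold toward library 1. By reads the short form was smaller, with 304 of 1713 counts in library 1 (17.7%) and 219 of 1686 in library 2 (13.0%), because TPM divides by length and its model holds 1496 bases against 3441. The posterior SD of these counts was 11.4 and 11.1 reads. The tables cannot tell reads of a mature short transcript from reads of an unspliced one that cover the same intron. The 3 further transcripts of the gene took at most 1.29% each.

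**Figure D4:**
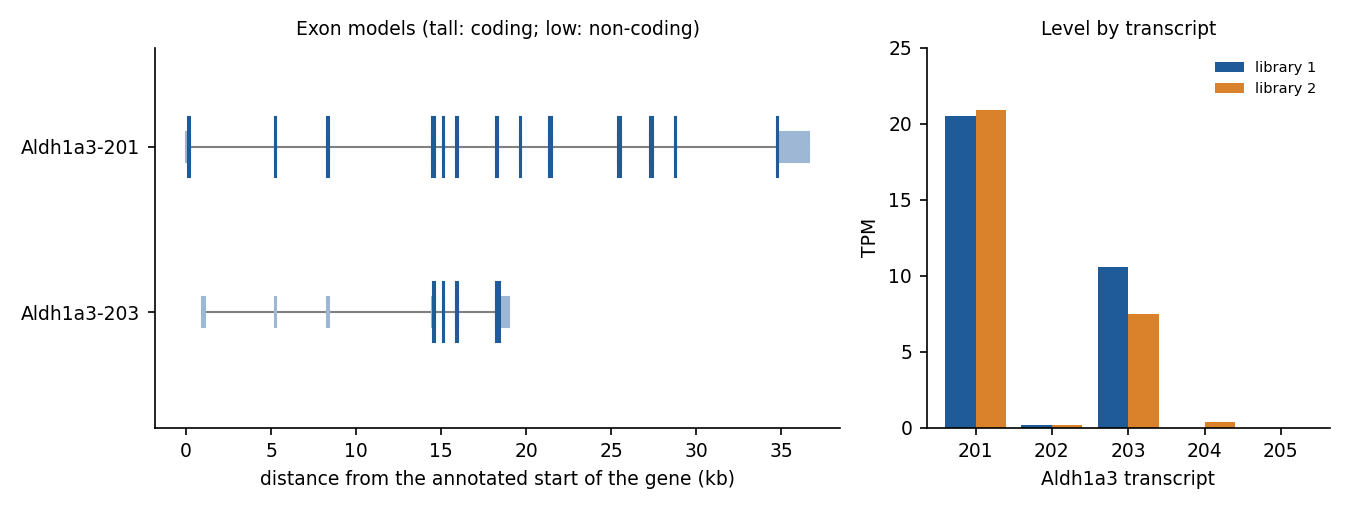
Left, the exons of Aldh1a3-201 and Aldh1a3-203 by distance from the annotated start of the gene in kb, coding parts tall. Right, the level of each of the 5 transcripts in TPM in library 1 and library 2, where Aldh1a3-201 is at 20.5 and 20.9 and Aldh1a3-203 at 10.6 and 7.52.

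In the remaining members the estimate gave nearly all of the TPM to 1 transcript, a division that was not resolved for Cyp26b1. In the gene models used for counting, Aldh1a1, Aldh1a2, Crabp1, Cyp26a1 and Cyp26c1 each had 1 transcript. Their isoform share of 100% is therefore fixed by the annotation. The later release M21 lists 6 for Aldh1a1 and 2 for Cyp26a1. It lists 5 for Cyp26b1, which had 2 in the models used for counting. Rdh10-201 took 96.4% and 97.7% of its gene, beside a retained-intron form at 3.58% and 2.29%. Crabp2-201 took 99.5% and 99.6%. For Cyp26b1 the estimate gave Cyp26b1-202 all of the TPM in both libraries, but the posterior mean shares were 88.8% and 88.3%, with a posterior SD of 58.3 and 56.7 reads on 446 and 468. The other model, Cyp26b1-201, had posterior mean counts of 56.0 and 61.8 with the same SD, so its use was not resolved at this depth. Both models code for 1536 bases, in release M21. All 4 members with more than 1 transcript had the same leading transcript in both libraries.

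The binding proteins were by far the most abundant members. Crabp1 (chromosome 9, 54764748 to 54773110), long used as a mark of neural crest cells, stood at 783 TPM in library 1 and 724 in library 2, a mean of 753 ± 42.0. Crabp2 (chromosome 3, 87948666 to 87953376), which hands the acid to its receptors, stood at 473 and 483, a mean of 478 ± 7.01. Crabp1 exceeded Crabp2 in both libraries, by 1.66 and 1.5 times. Among protein-coding genes, Crabp1 lay at percentile 99.5 and Crabp2 at percentile 98.9 of mean TPM. Their summed level exceeded that of the 7 enzymes by 8.47 times in library 1 and 11.0 times in library 2. Reads of the 9 genes were assigned with almost no ambiguity, with a posterior SD of at most 0.39 reads per gene, so the order does not rest on reads divided between paralogs.

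The Cyp26 enzymes were the lowest group and were graded. Cyp26a1 (chromosome 19, 37697798 to 37701536), the enzyme that retinoic acid itself induces, was at 13.9 TPM in library 1 and 11.7 in library 2, a mean of 12.8 ± 1.56. Cyp26b1 (chromosome 6, 84571414 to 84593908), which clears the acid in limb buds and hindbrain, was at 5.32 and 5.52, a mean of 5.42 ± 0.141. Cyp26c1 (chromosome 19, 37685581 to 37693398), a gene of the anterior embryo, was at 1.95 and 2.47, a mean of 2.21 ± 0.368. Cyp26c1 and Cyp26a1 are neighbours on the same strand, 4399 bases apart with no annotated gene between them. Cyp26a1 exceeded Cyp26c1 by 7.14 times in library 1 and 4.75 times in library 2. The values of the 3 genes did not overlap between them.

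The promoter of Cyp26a1 is shown because it carries a direct repeat of the hexamers that RAR and RXR receptors bind. Cyp26a1 is the Cyp26 gene with the highest level here, and the part of the repeat in that level was not tested. The promoter sequence comes from RefSeq (GRCm38.p6, chr19:37697558-37697857, plus strand) and covers 250 bases before and 50 bases after the listed start of transcription. The capitals mark the match to AGTTCANNNNNAGTTCA, read on the opposite strand as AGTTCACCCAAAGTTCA, at positions -32 to -16 from that start (37697776 to 37697792).
Cyp26a1: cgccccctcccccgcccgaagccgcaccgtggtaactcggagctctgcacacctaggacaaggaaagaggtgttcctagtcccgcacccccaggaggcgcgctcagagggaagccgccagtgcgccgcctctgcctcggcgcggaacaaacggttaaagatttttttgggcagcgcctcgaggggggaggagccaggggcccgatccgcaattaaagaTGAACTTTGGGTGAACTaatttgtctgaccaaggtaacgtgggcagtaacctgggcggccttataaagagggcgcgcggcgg

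The search took hexamers AGGTCA or AGTTCA in any combination, with 1, 2 or 5 bases between them, on both strands. A repeat with 5 bases between was held by 13 of 32851 promoters of this length (0.0396%), with 2 bases by 13 and with 1 base by 27. Promoters were matched for 6 of the 9 members (Aldh1a1, with 2 starts, Aldh1a2, Crabp1, Cyp26a1, Cyp26b1 and Cyp26c1), and Cyp26a1 was the one with a match. A match describes the letters in this window and was not measured as a bound site.

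Other genes of the pathway were transcribed in the same tissue. All 6 receptor genes were detected, where 58.5% of protein-coding genes were. Rarg stood at 52.1 ± 1.301 TPM, Rarb, itself induced by retinoic acid, at 38.4 ± 3.83 and Rara at 27.4 ± 4.02. All 6 had ratios toward library 1, from 1.02-fold for Rarg to 1.26-fold for Rxrg. The median log2 ratio was -0.24 over these 6 and 0.002 over the genes compared. A single direction was not particular to the receptors, since all 8 neuronal markers also lay toward library 1 and all 6 skeletal muscle markers toward library 2. Rxra and Rxrg, 2 of the 6 receptor genes, lay just past 25% higher in library 1, as did 10.8% of the genes compared. Crabp2 thus stood 9.17 times as high as the most abundant receptor gene. Of 8 receptor cofactors all 8 were detected, beside the same 58.5% of protein-coding genes. They were led by the corepressor Ncor1 (123 ± 5.92), the acetyltransferase Crebbp (25.5 ± 0.205) and Nrip1 (25.4 ± 6.50).

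Of 23 genes of retinol supply and other retinoid enzymes, 13 were detected, a share near the 58.5% of protein-coding genes. The other 10 stayed below 1 TPM in both libraries. Fabp5, a fatty acid binding protein that can also bind retinoic acid, led at 352 ± 0.686 TPM, ahead of the alcohol dehydrogenase Adh5 (206 ± 0.318). Of the 13 with at least 50 counts, 3 differed by at least 25%, all toward library 1, beside 17.9% of the genes compared in either direction and 10.8% in that one. They were Ttr, the thyroxine and retinol transport protein, at 4.83-fold on 184 and 38 counts, Rbp4, its partner in blood, at 1.37-fold on 33 and 24 counts, and Rdh5, a retinol dehydrogenase of the retinal pigment layer, at 1.32-fold on 129 and 97.8 counts. These 3 were named after their values were seen.

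Of 14 genes known to respond to retinoic acid, 10 were detected, where 58.5% of protein-coding genes were. Meis1 (68.9 ± 0.488 TPM), Nr2f2 (54.4 ± 0.247) and Meis2 (46.8 ± 3.34), all transcription factors, were the highest. Among the 4 below 1 TPM in both libraries were Hoxb1 (0.460 ± 0.368), Cdx1 (0.105 ± 0.0636) and Stra8 (0.0600 ± 0.0849). Of the 11 with at least 50 counts, 2 differed by at least 25%, a share near the 17.9% of all genes compared: Tgm2, a transglutaminase, toward library 1 at 1.89-fold, and Hoxa2, of the second pharyngeal arch, toward library 2 at 1.26-fold.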

How the data were processed

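Total RNA longer than 200 nt, 10 ng per library, was sequenced from 2 pools, per the labels. Expected counts, TPM, FPKM and isoform percentages (IsoPct, in percent) were estimated by the authors for each library against GENCODE M4 on mm10, per notes the authors deposited; column names are those of RSEM, and tool versions and strandedness are not given in the sources used here. In the deposited TPM, spike-ins count toward the total. Effective length was length minus 99 in every transcript. No other M21 gene shares exon bases with a member.

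Symbols and positions came from GENCODE M21 (same assembly), matched without version; 42462 of 43346 genes had a name. Counts were scaled with TMM in edgeR 4.0.16 (R 4.3.3) over all genes, counts rounded for this step; DESeq2 1.42.0 size factors were an alternative. The ratio rules (a library at least 25% above the other, at least 50 counts over both) are rules of size, not tests. Scripts were tested on simulated data. The 4 pathway lists (49 genes) and 10 marker lists (86 genes) were written for this account. Members, lists and rules were chosen with earlier results of these data known. Named were the members, the 3 highest genes of each pathway list, those below 1 TPM in both libraries where 5 or fewer, the highest markers, and transcripts with at least 10% of a member's TPM; further names were chosen after their values were seen. Some genes these rules would name are not reported here.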

Additional observations from a re-analysis of the deposited data

How the results depend on the processing

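All alternatives kept the direction of the ratio of Aldh1a1, whose log2 value ranged from -1.54 to -1.47 over 6 other scalings and measures. The count of members at least 25% higher in a library fell from 2 to 1 with spike-in totals, with a 1.5-fold threshold and with a minimum of 200 counts, each time by the loss of Cyp26c1, which had 66 and 85 counts. Crabp2 and Rdh10 lay so close to equal that spike-in scaling turned their log2 ratios from 0.06 to -0.01 and from 0.02 to -0.04, and total counts on genes and the ratio of TPM also turned Rdh10, to -0.01 and -0.02. With posterior mean TPM the ratio of Aldh1a2 to Aldh1a3 was 0.997 rather than 1.01. TPM over genes alone raised every member by 1.18 times. All 9 members were detected under each alternative except a threshold of 5 TPM, which 8 passed.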

Other observations

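Marker genes of heart and skeletal muscle differed between the pools in the direction opposite to the eye genes. Of 6 heart genes, 5 were at least 25% higher in library 2, where 7.11% of the genes compared were, with Nppa at 1.46 and 14.7 TPM and Myl2 at 11.1 and 28.7, and Nkx2-5 was the exception at 1.68 and 1.34. The summed level was 23.5 TPM in library 1 and 76.6 in library 2. Of 6 skeletal muscle genes, 5 were at least 25% higher in library 2, with Actc1, an actin of both heart and embryonic skeletal muscle, at 43.3 and 87.0 TPM.

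Within the forebrain list the genes parted. Hesx1 was 2.47-fold and Lhx5 1.91-fold higher in library 1, while Nkx2-1, a gene of the ventral forebrain and thyroid, was 2.42-fold higher in library 2. On the list of retinoic acid responses, Hoxb1 had 8 counts in library 1 and 30 in library 2.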
